A study of Rattus norvegicus with 28 samples.

Results

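Genes of the unfolded protein response and of protein folding in the endoplasmic reticulum (ER) were followed in primary rat hepatocytes exposed to dioxin-like compounds. The set consisted of 10 listed genes, Atf4, Ddit3, Trib3, Asns, Xbp1, Hspa5, Pdia4, Ero1a, Entpd5 and Herpud1. Their probes were found by gene name or accession among the 41012 probes of the array, of which 37824 were tested. The genes gave 11 probes of 9 genes, and all 11 passed the filter on dim probes. Pdia4 is listed on the array under its older name Erp70 and Ero1a under Ero1l. Herpud1 and Ero1a each have 2 probes, and the second Ero1a probe, A_44_P501992, was matched to the gene through a synonym of its name. Xbp1, the transcription factor activated by IRE1, had no probe that matched, so its expression was not analysed here and only its promoter was searched.

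The hepatocytes came from 2 adult female Sprague-Dawley rats, called A and B. They stood in culture on Matrigel with 0.1 uM dexamethasone for 48 h and were then exposed for 24 h. The groups were TCDD, a chlorinated dioxin, at 0.01 and 1 nM; TCDF, a chlorinated furan, at 0.1 and 10 nM; PeCDF, a furan with a further chlorine, at 0.02 and 2 nM; and cells left untreated. All compounds act on the aryl hydrocarbon receptor and were given in 0.1% DMSO, and RNA of cells with DMSO alone was the other channel of every array. Each group had 4 2-colour arrays, which were 2 animals in 2 dye orientations, and the RNA of 3 dishes was pooled for an animal. A value below is a log2 ratio of test RNA over DMSO RNA of the same animal, so that 0 means no difference and a fitted value rests on n = 2 animals. The doses differed between compounds, so values of different compounds are set side by side without a test.

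The unfolded protein response is set off when unfolded proteins gather in the ER, and 3 sensors in the ER membrane, PERK, IRE1 and ATF6, pass the signal on. PERK slows translation and raises the transcription factor ATF4, which turns on genes of amino acid supply and the factor CHOP, while IRE1 and ATF6 turn on chaperones, oxidoreductases and genes of ER-associated degradation. Hepatocytes secrete most plasma proteins and have a large ER, and the ATF4 targets also answer to a lack of amino acids through another kinase.

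The promoters of Herpud1, Hspa5 and Trib3 are shown because genes of the response are read through short DNA elements. The windows run from 250 bases before to 50 bases after the annotated start in RefSeq's GRCr8 build and are written 5′ to 3′ on the strand of the gene, with capitals for the ER stress element, its second form or the CCAAT enhancer binding protein and ATF response element (CARE). Herpud1 lies at chr19:10614658-10614957 on the minus strand, Hspa5 at chr3:38452766-38453065 on the plus strand and Trib3 at chr3:161275484-161275783 on the minus strand.
Herpud1: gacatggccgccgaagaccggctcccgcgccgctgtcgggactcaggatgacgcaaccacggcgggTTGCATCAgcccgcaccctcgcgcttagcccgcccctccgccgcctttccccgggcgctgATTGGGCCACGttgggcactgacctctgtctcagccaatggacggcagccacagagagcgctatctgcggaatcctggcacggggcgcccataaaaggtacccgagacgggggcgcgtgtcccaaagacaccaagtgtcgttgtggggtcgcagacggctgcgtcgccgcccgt
Hspa5: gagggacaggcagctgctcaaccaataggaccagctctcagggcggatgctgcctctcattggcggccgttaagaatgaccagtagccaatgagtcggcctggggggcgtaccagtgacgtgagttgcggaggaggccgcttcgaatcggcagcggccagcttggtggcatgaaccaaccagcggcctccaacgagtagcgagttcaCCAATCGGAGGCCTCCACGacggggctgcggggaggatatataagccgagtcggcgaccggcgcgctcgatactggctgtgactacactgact
Trib3: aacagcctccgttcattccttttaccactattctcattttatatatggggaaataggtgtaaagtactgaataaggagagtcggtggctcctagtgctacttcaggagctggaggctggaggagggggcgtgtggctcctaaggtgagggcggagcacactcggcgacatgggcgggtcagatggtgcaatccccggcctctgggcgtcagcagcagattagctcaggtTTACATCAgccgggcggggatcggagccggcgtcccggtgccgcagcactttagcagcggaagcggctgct
The search covered both strands of the windows of 9 of the 10 listed genes, Xbp1 among them. Ero1a had no window in the promoter set and was not searched. The ER stress element, searched as CCAAT and CCACG with any 9 bases between them, matched in Hspa5 from 43 bases before the start and in Xbp1 from 65 bases before the start, against 0.0657% of all 33469 windows of this length. Its second form, searched as ATTGG and CCACG with any 1 base between them, matched in Herpud1 alone of the 9, from 124 bases before the start, against 0.0508% of all windows. CARE, searched as TGATGNAA, matched on the reverse strand in Herpud1, from 184 bases before the start, and in Trib3, from 21 bases before the start, against 3.98% of all windows. The unfolded protein response element TGACGTGG and the core of the dioxin response element, TNGCGTG, matched in 0 of the 9 windows, against 0.595% and 4.89% of all windows. A match is a run of letters and not a measured binding site.

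All 11 probes were well above background on all 28 arrays in both channels, and 10 of them were saturated on none. The median log2 ratio over all tested probes was 0.00 in each comparison. As a check of the labels, Cyp1b1, a cytochrome induced through the aryl hydrocarbon receptor, had log2 ratios of 3.93 ± 0.15 with TCDD 1 nM, 2.07 ± 0.15 with TCDF 10 nM, 2.78 ± 0.15 with PeCDF 2 nM and -0.05 ± 0.15 in untreated cells, all over DMSO (SE). This was its brighter probe, and its other probe had lower values, 1.62, 0.33 and 0.56 with the same upper doses, of which that with TCDF 10 nM was not called (adjusted p = 0.132). Nqo1, a quinone reductase, had 1.54 ± 0.18, 1.44 ± 0.18 and 1.61 ± 0.18 with the same upper doses. Cyp1a1 was saturated in the test channel on all 4 arrays of each upper dose and was at least 3.25-fold higher with TCDD 1 nM. The file headers give 4 days on which the Feature Extraction software was run, which were grouped here into 2 sessions. TCDD and untreated cells were in the first and both furans in the second, so the compound class and the session cannot be told apart. Within a session the dye orientation coincided with the day.

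With TCDD 1 nM the members split. Of the 11 probes, 4 were higher and 4 were lower than in DMSO cells at an adjusted p under 0.05 (limma, Benjamini-Hochberg over all tested probes), against 4.54% of all tested probes higher and 6.05% lower. The higher ones were Atf4, Trib3, Asns and 1 of the 2 Ero1a probes, and the lower ones were both Herpud1 probes, Pdia4 and Ddit3. The median of the 11 log2 ratios was 0.03.

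Atf4, the transcription factor downstream of PERK, had log2 ratios with TCDD 1 nM of 0.19 and 0.37 on the arrays of animal A with the test RNA in red and in green, and of 0.11 and 0.28 on those of animal B. All 4 arrays lay above 0, and in both animals the array with the test RNA in green was the higher. The fitted value was 0.24 ± 0.04 (SE), a 1.18-fold increase over DMSO (adjusted p = 0.00422). Trib3, a pseudokinase that is a target of ATF4 and CHOP, had 0.22 and 0.39 in animal A and 0.52 and 0.56 in animal B, in the same order of dyes. Both animals were above 0 and animal B was higher than animal A. The fit gave 0.42 ± 0.09, or 1.34-fold over DMSO (adjusted p = 0.0172). Asns, asparagine synthetase, had 0.27 and 0.17 in animal A and 0.17 and 0.17 in animal B, and 1.15-fold over DMSO in the fit (0.20 ± 0.06, adjusted p = 0.049). Ddit3, which encodes CHOP, went the other way: its ratios were -0.35 and -0.31 in animal A and -0.13 and -0.11 in animal B. It was 1.17-fold lower than in DMSO (-0.22 ± 0.05, adjusted p = 0.0239). Without animal A of this group the calls of Atf4, Asns and Ddit3 were lost (adjusted p = 0.0541, 0.246 and 0.299), and without animal B those of Trib3 and Asns (adjusted p = 0.284 and 0.197). Agilent's own log ratio ended the calls of Asns (adjusted p = 0.0923) and Ddit3 (adjusted p = 0.0643), that of Ddit3 was also lost without background correction and in a fit of the first session alone (adjusted p = 0.0624 and 0.107), and that of Asns with no filter on dim probes or with marked spots kept (adjusted p = 0.0513 and 0.0502).

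Herpud1, a membrane protein of the ER that recruits the degradation machinery, had the largest change of the 9 genes with TCDD 1 nM. Its brighter probe, A_44_P1047924, had log2 ratios with TCDD 1 nM of -0.61 and -0.64 in animal A and -0.63 and -0.65 in animal B. The 4 arrays lay within a narrow range well below 0. The fit gave -0.63 ± 0.09, or 1.55-fold lower than in DMSO (95% interval -0.84 to -0.43, adjusted p = 0.00183). The other probe, A_44_P137356, had -0.39 and -0.60 in animal A and -0.64 and -0.83 in animal B, with a fitted value of -0.62 ± 0.09 (adjusted p = 0.00235). Both probes thus fell by a similar amount, though the second call was lost without animal B of this group (adjusted p = 0.0648). The call of the brighter probe held with either animal left out.

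**Figure D1:**
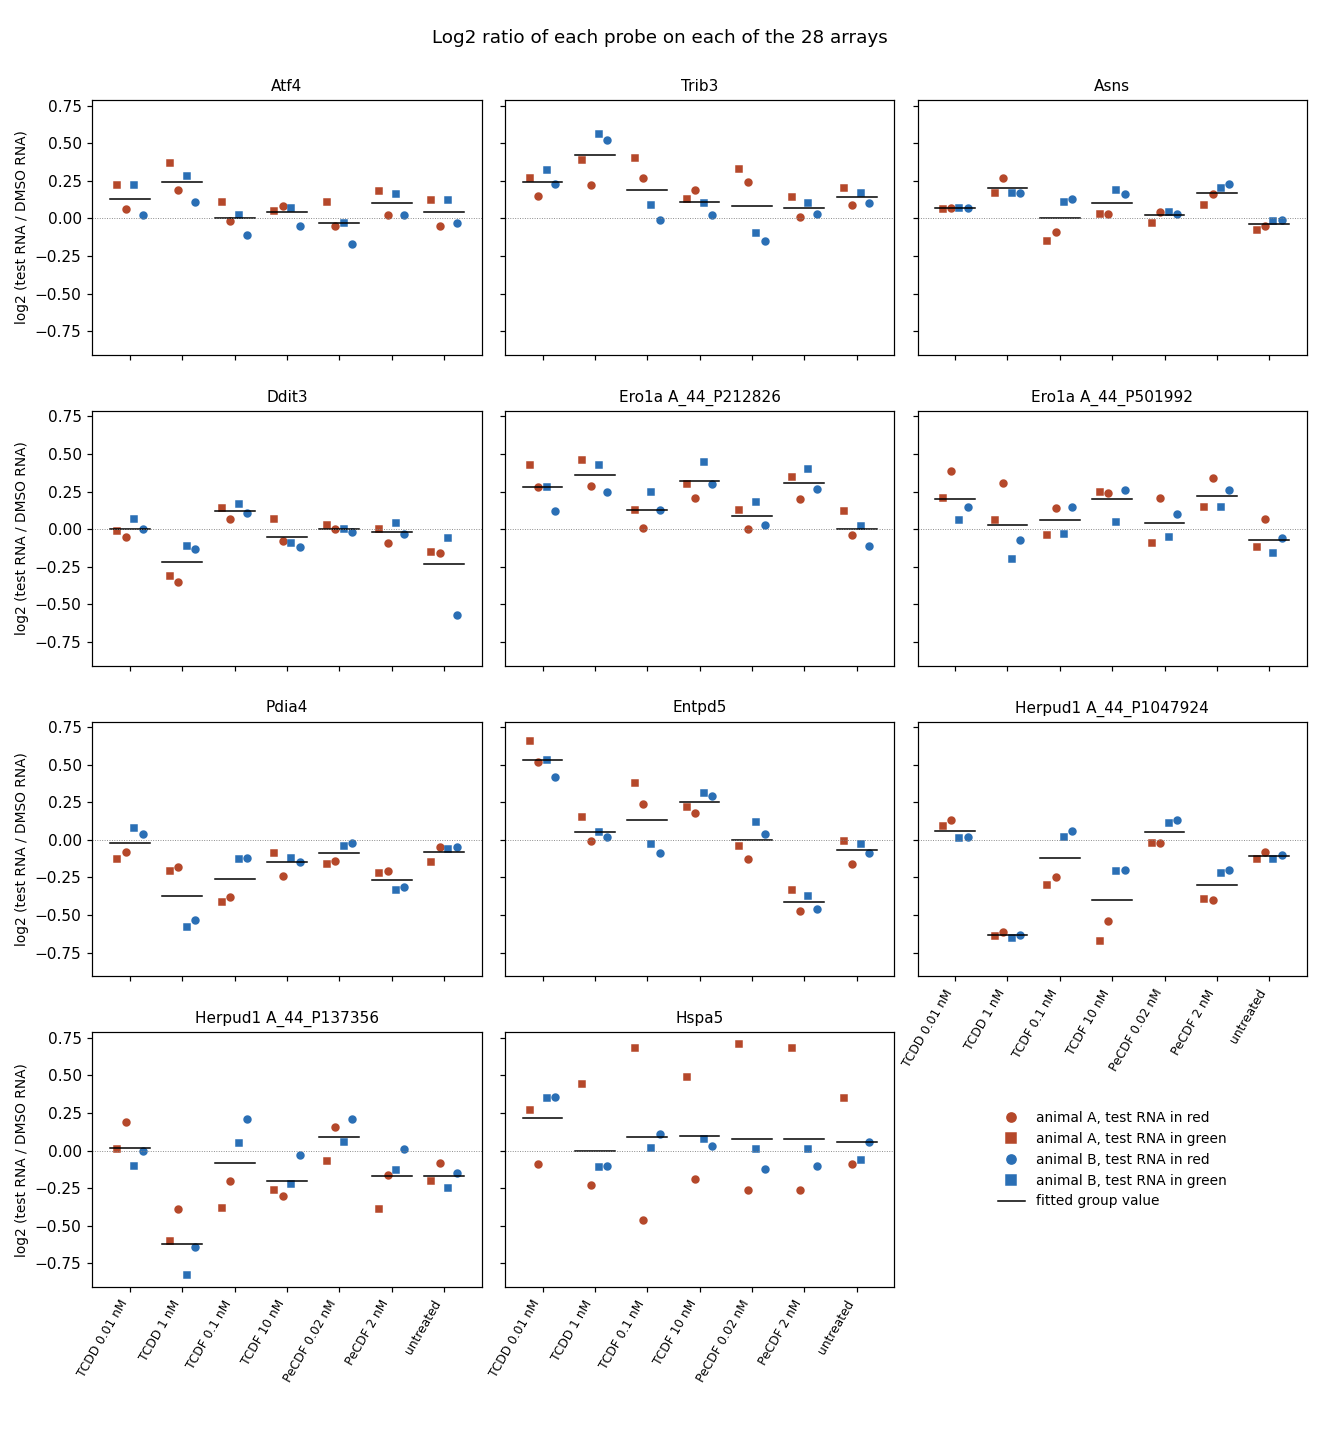
Log2 ratio of test RNA over DMSO RNA (vertical axis) for the 11 probes on each of the 28 arrays, by group (horizontal axis); colours are the animals, symbols the dye orientations and bars the fitted group values. With TCDD 1 nM the Herpud1 probe A_44_P1047924 lies between -0.65 and -0.61 on all 4 arrays, while Hspa5 of animal A is above 0 in one orientation and below 0 in the other.

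The folding enzymes differed from each other with TCDD 1 nM. Pdia4, a protein disulfide isomerase, had log2 ratios of -0.18 and -0.21 in animal A and -0.53 and -0.58 in animal B. Animal B was much lower than animal A, and all 4 arrays were below 0. It was 1.30-fold lower than in DMSO (-0.37 ± 0.08, adjusted p = 0.0186). The Ero1a probe A_44_P212826, for the oxidase that supplies disulfide isomerases with oxidizing power, had 0.29 and 0.46 in animal A and 0.25 and 0.43 in animal B, or 1.28-fold higher than in DMSO (0.36 ± 0.05, adjusted p = 0.00119). The second Ero1a probe did not follow, with 0.31 and 0.06 in animal A and -0.07 and -0.20 in animal B, and a fitted value of 0.03 ± 0.07 (adjusted p = 0.891). The Ero1a result therefore rests on 1 of 2 probes that disagree. Entpd5, an ER nucleoside diphosphatase that aids the folding of glycoproteins, had 0.05 ± 0.07 (95% interval -0.11 to 0.22, adjusted p = 0.765). The call of Pdia4 was lost without animal B (adjusted p = 0.373), without background correction (adjusted p = 0.0503) and in the fit of the first session alone (adjusted p = 0.0646), while that of Ero1a held with either animal left out.

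Hspa5, the chaperone BiP that holds the sensors inactive, could be measured less well than the other members. Its spot was saturated in the red channel on 14 of 14 arrays of animal A and on 6 of 14 arrays of animal B, and in the green channel on none. In animal A its log2 ratios over all groups ran from -0.46 to -0.09 with the test RNA in red and from 0.27 to 0.71 with the test RNA in green. The orientations of animal A thus lay on opposite sides of 0 in every group. In animal B, where 8 arrays were saturated in neither channel, the ranges were -0.12 to 0.36 and -0.11 to 0.35. With TCDD 1 nM the fit gave 0.00 ± 0.09 (95% interval -0.19 to 0.20, adjusted p = 0.994), and the unsaturated arrays of animal B had -0.10 and -0.11. No group had a call for Hspa5, the fitted values running from 0.00 with TCDD 1 nM to 0.22 ± 0.09 with TCDD 0.01 nM (adjusted p = 0.405).

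**Figure D2:**
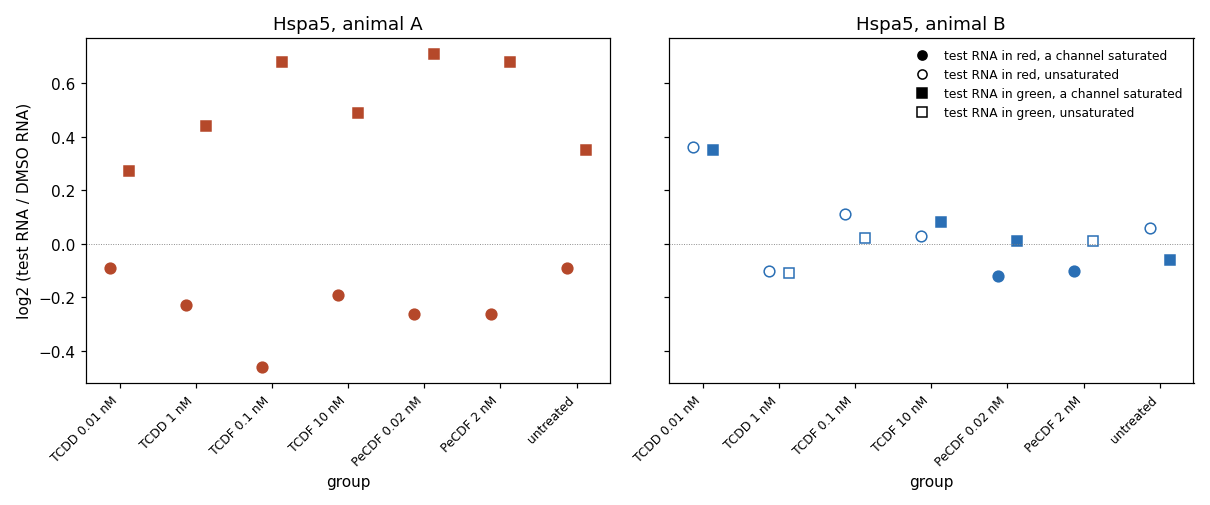
Log2 ratio of test RNA over DMSO RNA for Hspa5 (vertical axis) by group (horizontal axis) in animals A and B; circles are arrays with the test RNA in red, squares those with it in green, and filled symbols are arrays with a saturated channel. All 14 arrays of animal A are saturated and split by orientation, while the orientations of animal B lie close together.

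At the upper doses of the furans fewer members passed the threshold. With TCDF 10 nM 1 of 11 probes was higher and 0 were lower, against 0.984% and 1.11% of all tested probes, and with PeCDF 2 nM 1 was higher and 1 was lower, against 1.69% and 2.53%. The comparisons share DMSO RNA of the same 2 rats. The Ero1a probe A_44_P212826 was the member called in both: it had 0.21, 0.30, 0.30 and 0.45 with TCDF 10 nM, and 0.20, 0.35, 0.27 and 0.40 with PeCDF 2 nM, each in the order animal A red and green, then animal B red and green. The fits gave 0.32 ± 0.05 with TCDF 10 nM (1.25-fold over DMSO, adjusted p = 0.01) and 0.31 ± 0.05 with PeCDF 2 nM (1.24-fold, adjusted p = 0.0089), beside the 0.36 of TCDD 1 nM. Here the second Ero1a probe was also above 0 on all arrays, at 0.20 ± 0.07 and 0.22 ± 0.07 (adjusted p = 0.218 and 0.11). With PeCDF 2 nM the second probe was called with the animal as a replicate block (adjusted p = 0.0482) and in a fit of the second session alone (adjusted p = 0.0311). An array-level fit with a dye term called it with TCDF 10 nM and PeCDF 2 nM (adjusted p = 0.0205 and 0.00634), but that fit raised the calls over all probes as well. Both calls of the first probe were lost when either animal of the group was left out (adjusted p from 0.0996 to 0.158).

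Herpud1 A_44_P1047924 had -0.54, -0.67, -0.20 and -0.21 with TCDF 10 nM and -0.40, -0.39, -0.20 and -0.22 with PeCDF 2 nM. Every array was below 0, and animal A was lower than animal B with both furans. The fitted values, -0.40 ± 0.09 (adjusted p = 0.0574) and -0.30 ± 0.09 (adjusted p = 0.108), did not pass the threshold, although that for TCDF 10 nM did with the animal as a replicate block (adjusted p = 0.032). Without animal B it had -0.60 (adjusted p = 0.0377), a value of animal A alone whose spread is taken from the other groups. The other Herpud1 probe had -0.20 ± 0.09 and -0.17 ± 0.09. Pdia4 stood at -0.15 ± 0.08 with TCDF 10 nM and -0.27 ± 0.08 with PeCDF 2 nM. Asns had 0.10 ± 0.06 and 0.17 ± 0.06, Atf4 0.04 ± 0.04 and 0.10 ± 0.04, Trib3 0.11 ± 0.09 and 0.07 ± 0.09, and Ddit3 -0.05 ± 0.05 and -0.02 ± 0.05, in the same order, and none of these passed.

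Entpd5 had the widest spread of fitted values between the upper doses of the furans. With PeCDF 2 nM it had -0.47, -0.33, -0.46 and -0.37, and was 1.33-fold lower than in DMSO (-0.41 ± 0.07, adjusted p = 0.0148). With TCDF 10 nM it had 0.18, 0.22, 0.29 and 0.31, a fitted 0.25 ± 0.07 that did not pass the threshold (adjusted p = 0.146). The arrays of these groups did not overlap. The difference between the compounds was not tested, since the doses differ. The call with PeCDF 2 nM was lost without animal A (adjusted p = 0.191), without animal B (adjusted p = 0.123) and in a fit of the second session alone (adjusted p = 0.0565).

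**Figure D3:**
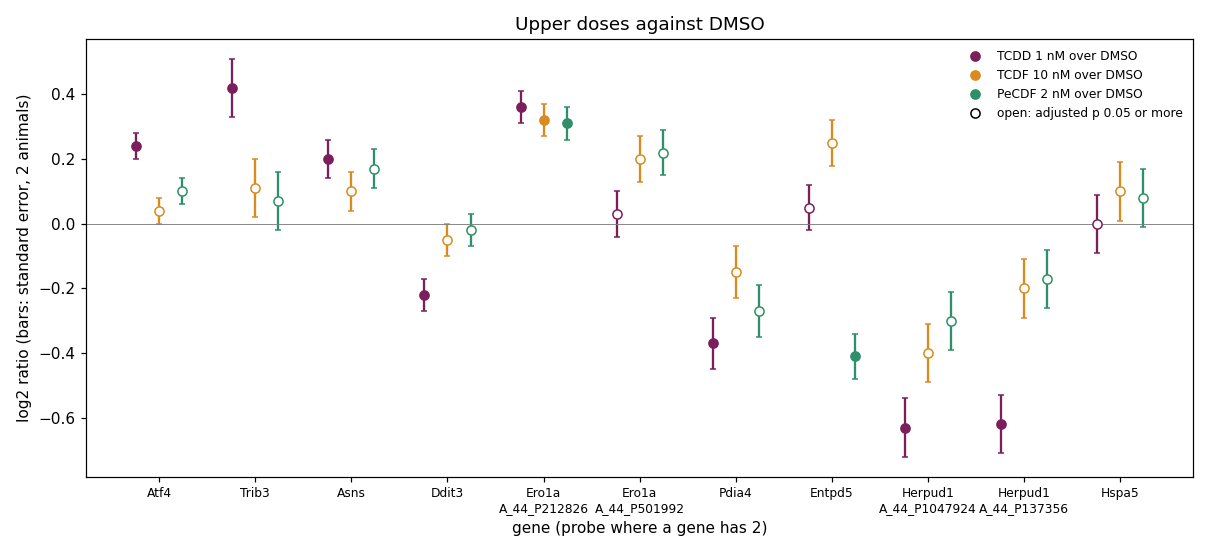
Fitted log2 ratios over DMSO (vertical axis, bars are standard errors, 2 animals) of the 11 probes (horizontal axis) at the upper dose of each compound; filled points have an adjusted p under 0.05. TCDD 1 nM has 8 filled points, from Herpud1 at -0.63 to Trib3 at 0.42, TCDF 10 nM has 1 and PeCDF 2 nM has 2.

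The lower doses gave calls with TCDD alone. With TCDD 0.01 nM 2 of 11 probes were higher and 0 lower, against 0.0872% and 0.354% of all tested probes. Entpd5 had 0.52, 0.66, 0.42 and 0.53 and was 1.45-fold higher than in DMSO (0.53 ± 0.07, adjusted p = 0.0109). The Ero1a probe A_44_P212826 had 0.28, 0.43, 0.12 and 0.28 and was 1.21-fold higher (0.28 ± 0.05, adjusted p = 0.0427). Every array of both was above 0. The second Ero1a probe was also above 0 on all 4 arrays, at 0.20 ± 0.07, but was not called (adjusted p = 0.305). Neither call was left without animal A or in the fit of the first session alone (Entpd5: adjusted p = 0.164 and 0.0546; Ero1a: 0.543 and 0.266), and with the animal as a replicate block Ero1a had an adjusted p of 0.0593. Agilent's log ratio and the stricter filter also ended the call of Ero1a (adjusted p = 0.146 and 0.0593). With TCDF 0.1 nM and with PeCDF 0.02 nM limma called 0 members, against 0% of all tested probes in each case. An unadjusted p under 0.05 was found for 3 and 0 members, beside 2851 of 37823 and 2851 of 37819 tested probes. Among the 3 members Pdia4 stood at -0.26 ± 0.08 with TCDF 0.1 nM, where animal A had -0.38 and -0.41 and animal B -0.12 and -0.13.

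Between the doses of TCDD, 3 probes were lower at 1 nM than at 0.01 nM and 0 were higher, against 2.26% and 1.35% of all tested probes. Herpud1 had a mean log2 ratio of -0.63 at 1 nM and 0.06 at 0.01 nM, a step of -0.70 ± 0.13 (adjusted p = 0.0177), and its other probe -0.62 at 1 nM and 0.02 at 0.01 nM, a step of -0.64 ± 0.13 (adjusted p = 0.0282). Entpd5 had 0.05 at 1 nM and 0.53 at 0.01 nM, a step of -0.48 ± 0.10 (adjusted p = 0.0332). Entpd5 at 1 nM stayed near its DMSO level. Of these calls 2 remained without animal A at 1 nM, 1 without animal B at 0.01 nM, and 0 without animal A at 0.01 nM or animal B at 1 nM. Without animal A at 1 nM, Pdia4 (-0.53, adjusted p = 0.0235) and the second Ero1a probe (-0.34, adjusted p = 0.0426) had an adjusted p under 0.05 too, but at 1 nM these values are of animal B alone, and Pdia4 differed widely between the animals. Agilent's log ratio, the series table or no background correction left only the call of the brighter Herpud1 probe. Between the doses of TCDF and of PeCDF limma called 0 members, against 0.0899% and 0.0873% of all tested probes in either direction. An unadjusted p under 0.05 was found for 2 and 4 members, beside 1718 of 37815 and 1916 of 37807 tested probes. The largest step of these members was that of Entpd5 with PeCDF, with a mean of -0.41 at 2 nM against 0.00 at 0.02 nM (-0.41 ± 0.10, adjusted p = 0.363).

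In untreated cells limma called 0 members against DMSO, against 0.0423% of all tested probes in either direction. An unadjusted p under 0.05 was found for 1 of 11 members, beside 3960 of 37824 tested probes. The member was Ddit3, with -0.16 and -0.15 in animal A and -0.57 and -0.06 in animal B (-0.23 ± 0.05, adjusted p = 0.222). The red array of animal B was the lowest of the 4, and all 4 were below 0. The fitted value of Ddit3 was about the same as the -0.22 of TCDD 1 nM over the same solvent. The other fitted values in untreated cells lay between -0.17 for Herpud1 A_44_P137356 and 0.14 for Trib3.

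The other genes of the pathway were taken from 7 lists with 136 genes, of which 119 were measured with 1 probe each. With TCDD 1 nM 14 were higher and 19 lower than in DMSO, or 11.8% and 16% of those measured, against 5.22% and 7.72% of all genes with a symbol. The median over the 119 was -0.05, against -0.01 over all genes with a symbol. The number of calls, 33, was 13 without animal B of this group and 36 without animal A.

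Genes of ER-associated degradation and glycan control gave 0 higher and 6 lower of 20 measured with TCDD 1 nM (list median -0.08). The shares were 0% and 30%, against 5.22% and 7.72% of all genes with a symbol. Edem1 and Edem2, which take misfolded glycoproteins out of the folding cycle, had log2 ratios of -0.49 ± 0.04 (adjusted p = 5.72e-05) and -0.43 ± 0.05 (adjusted p = 0.000679). Erlec1, a lectin of the same pathway, fell by 0.24 on the log2 scale (adjusted p = 0.0117). Its other probe had -0.25 and was not called (adjusted p = 0.191). The lower call of Herpud1 thus stood beside lower calls for 6 of these 20 genes, while 14 were not called.

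All genes with a symbol gave 7.72% lower and 5.22% higher with TCDD 1 nM. Among the disulfide-forming enzymes 3 of 12 (25%) were lower and 0 higher. They were P4hb, the main disulfide isomerase (-0.49 ± 0.13, adjusted p = 0.0434), Pdia5 (-0.36 ± 0.10, adjusted p = 0.0416) and Ero1b (-0.28 ± 0.06, adjusted p = 0.0131), the last a paralogue of Ero1a that went the other way from the called Ero1a probe. Among ER chaperones 3 of 18 (16.7%) were lower and 1 (5.56%) higher. Hsp90b1, the ER form of HSP90, had -0.42 ± 0.05 (adjusted p = 0.000427), and its other probe had -0.87 (adjusted p = 0.019). Serp1 had -0.38 ± 0.08 and Manf, a secreted ER stress protein, -0.28 ± 0.06. Of 15 genes of translocation into the ER, 2 (13.3%) were lower, the translocon-associated Ssr2 (-0.53 ± 0.10) and Ssr4 (-0.18 ± 0.04), and 0 were higher.

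**Figure D4:**
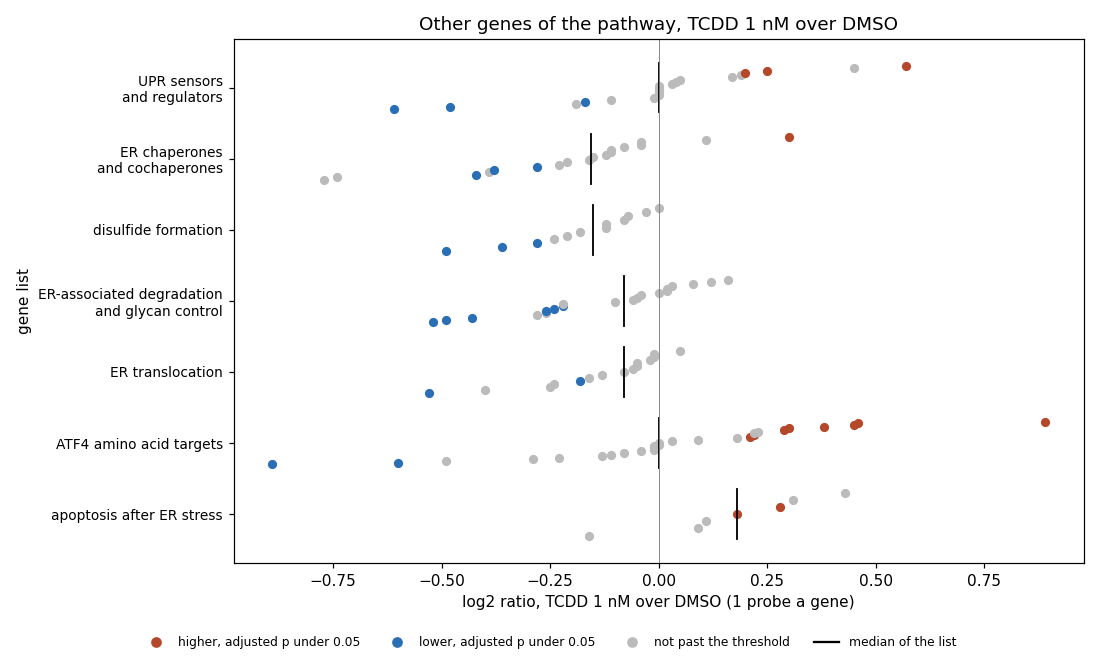
Log2 ratio of TCDD 1 nM over DMSO (horizontal axis) for the 119 measured genes of 7 lists (vertical axis), 1 point a gene; red points are higher and blue points lower at an adjusted p under 0.05, and black bars are list medians. The 6 called genes of ER-associated degradation are all lower, while 8 of the 10 called ATF4 targets are higher.

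The ATF4 targets of amino acid supply gave 8 higher and 2 lower of 27 measured with TCDD 1 nM, with a list median of 0.00. The shares were 29.6% and 7.41%, against 5.22% and 7.72% of all genes with a symbol. Slc7a11 and Slc3a2, which together form the cystine and glutamate exchanger, had 0.45 ± 0.04 (adjusted p = 7.24e-05) and 0.30 ± 0.05 (adjusted p = 0.00242). Gdf15, a stress hormone, rose to 1.85-fold of DMSO (0.89 ± 0.07, adjusted p = 4.91e-05). Fgf21, a liver hormone that is also an ATF4 target, went the other way with -0.89 ± 0.06 (adjusted p = 2.43e-05). The list therefore held called genes in both directions.

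Of 20 sensors and regulators of the response, 3 were higher and 3 lower, or 15% each way, against 5.22% and 7.72% of all genes with a symbol. Atf3, a stress-induced factor, had 0.57 ± 0.13 (adjusted p = 0.0218) and Eif2ak1, the haem-regulated kinase that acts on the same translation factor as PERK, 0.25 ± 0.06 (adjusted p = 0.0191). Nupr1, a stress-induced chromatin protein, had -0.61 ± 0.07 (adjusted p = 0.00043) and Creb3l3, a liver transcription factor of the ER membrane, -0.48 ± 0.09 (adjusted p = 0.00515). Among 7 genes of apoptosis after ER stress, Bax (0.28 ± 0.06, adjusted p = 0.0114) and Bcl2l11 (0.18 ± 0.05, adjusted p = 0.0409) were higher and 0 were lower.

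Of the 119 pathway genes 3 were higher and 4 lower with TCDF 10 nM, or 2.52% and 3.36%, against 1.47% and 1.55% of all genes with a symbol. With PeCDF 2 nM 9 were higher and 9 lower, or 7.56% each way, against 2.18% and 2.67%. Gdf15 had 0.52 ± 0.07 with TCDF 10 nM and 0.40 ± 0.07 with PeCDF 2 nM, and Fgf21 -0.46 ± 0.06 and -0.35 ± 0.06, each called. Edem2 was also called with both, at -0.34 ± 0.05 and -0.25 ± 0.05, whereas Edem1 was not, at -0.13 ± 0.04 and -0.07 ± 0.04. Of the 20 measured genes of ER-associated degradation and glycan control, 0 were higher and 1 lower with TCDF 10 nM. With PeCDF 2 nM 2 of these 20 were higher and 1 lower, with a list median of 0.03. Hsp90b1 had -0.34 ± 0.05 and -0.26 ± 0.05, both called, but its other probe had 0.03 and -0.02. Among the lower calls with PeCDF 2 nM, Hyou1, an ER chaperone, had -0.39 and Rpn1, a subunit of the oligosaccharyl transferase, -0.31, while their other probes had -0.01 and 0.12. Leaving out 1 animal left 0 to 2 calls with TCDF 10 nM and 0 to 4 with PeCDF 2 nM.

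Markers of other liver cells moved with TCDD 1 nM as well. In bulk RNA, fewer cells of a type and less RNA per cell cannot be told apart. Of 12 Kupffer cell and leukocyte markers 5 were lower, of 9 stellate cell and fibroblast markers 2, of 8 cholangiocyte markers 2 and of 7 endothelial markers 0, and none of these was higher, against 7.72% lower of all genes with a symbol. The list medians were -0.16 for the Kupffer, 0.00 for the stellate, -0.08 for the cholangiocyte and -0.01 for the endothelial markers, and the lowest stellate and cholangiocyte markers had -0.91 and -1.35. Among 8 hepatocyte markers 1 was higher and 1 lower, and all 8 were well above background on all arrays of all groups. The summed intensity of the cholangiocyte markers was 2056 to 2170 in the TCDD 1 nM channels and 2516 to 3101 in their DMSO channels, without overlap. That of the stellate markers was 2848 to 3098 with TCDD 1 nM and 3381 to 3790 in DMSO, also without overlap. The Kupffer markers summed to 10045 to 14485 with TCDD 1 nM and 11678 to 16622 in DMSO, the endothelial markers to 1205 to 1944 with TCDD 1 nM and 1145 to 1917 in DMSO, and the hepatocyte markers to 278511 to 406830 with TCDD 1 nM and 272417 to 436678 in DMSO. No measured marker was dim on all 4 TCDD 1 nM arrays. In TCDF 10 nM cells 1 of 8 cholangiocyte markers was lower, against 1.55% of all genes with a symbol. With PeCDF 2 nM 1 of 8 cholangiocyte markers was lower, and of 9 stellate markers 2 were higher and 1 lower. The shares of all genes with a symbol were 2.18% higher and 2.67% lower with PeCDF 2 nM. The hepatocyte, Kupffer and endothelial lists had 0 calls at these furan doses. The part of other cell types in the results above was not tested.

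Over the 14 animal-level values, which share DMSO RNA of 2 rats, the genes most like a member were found by Pearson's r, as a description. Close to Herpud1 were Adh1c (r = 0.98), an alcohol dehydrogenase, and Rbl2 (0.95). The called Ero1a probe was closest to Ahcy (0.97), Lbp (0.91) and Cyp1a2 (0.91), the last a cytochrome of the aryl hydrocarbon receptor battery. Pdia4 was closest to Hacd3 (0.96), Pcyox1 (0.94) and Rad50 (0.90), Atf4 to Car9 (0.96), Apob (0.92) and Nup153 (0.92), and Trib3 to Cebpg (0.92), Rpl23al5 (0.92) and Or4k35 (0.91). Among the members themselves r was 0.90 between the Herpud1 probes, 0.61 between the Ero1a probes, 0.70 between Trib3 and Atf4, and -0.63 between Atf4 and the brighter Herpud1 probe.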

How the data were processed

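The 28 arrays covered 7 groups. The deposited scanner files hold the signal and background of each spot as intensity, per the file headers. The submitters' processing notes name Agilent Feature Extraction 9.1, while the headers name an earlier version. The deposited series table holds the authors' log10 ratio, here turned to log2, and differed from the turned scanner log10 ratio by at most 4.995e-06. Its column medians ran from -0.00302 to 0.0051.

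Intensities were corrected by normexp (offset 50) and normalized by loess with R 4.3.3 and limma 3.58.1, with 2256 control spots at weight 0, and 1067 marked spots (0.0921%) were dropped. The 2 dye orientations of an animal were averaged into 1 replicate, and a value was missing where either was (990 values, 0.172%). Missing values were left out of the fit. A probe was kept when well above background on all 4 test channels of a group or on 14 of 28 DMSO channels. The 14 values were fitted as 7 group means and moderated by empirical Bayes, with 7 residual degrees of freedom and a prior of 3.12. Calls used Benjamini-Hochberg adjusted p under 0.05 over all kept probes. Replicates were separate animals, and the labels give the pairing, since A and B are the same rats in each group. The deviations of animal A correlated between groups from -0.425 to 0.568 (median 0.119). The number of arrays limits the precision.

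Named genes were all members, up to 4 genes a list with the smallest adjusted p at an upper dose, label checks, and the 3 genes most correlated with a member; some genes that this rule picks are not reported here. Members and lists were chosen with earlier results of these data known. The fit was tested on simulated data with changes put into TCDD 1 nM. It called 53 of 100 changes of 0.3 on the log2 scale and 91 of 100 changes of 0.6, with 4 false calls. A change near 0.3 without a call was therefore not shown to be absent. The 11 alternatives changed the background correction, the source of the ratios, the filters, the probes of a gene, the animal, dye and session terms, and in 14 further fits 1 animal was left out, where the remaining animal of the group was assumed to vary like the other groups. Promoters came from RefSeq GRCr8, matched by symbol for 9 of 10 genes. It is not stated whether 1 DMSO preparation served all arrays of an animal.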

Additional observations from a re-analysis of the deposited data

Results flagged for a closer look

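Of 77 groups of 4 arrays, 4 held an array far from the other 3. With independent arrays chance alone marks about 1 in 20. The arrays of a group were 2 dye orientations of 2 animals, so this share need not hold here. The array of animal A with TCDD 1 nM in red had 0.27 for Asns, against 0.17 on each of the others. With PeCDF 0.02 nM the green array of animal A had -0.03 for Asns, against 0.03 to 0.04. In untreated cells the green array of animal A had -0.15 for Pdia4, against -0.06 to -0.05. With TCDF 10 nM the green array of animal B had 0.05 for the second Ero1a probe, against 0.24 to 0.26.

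The effect of TCDD differed between 1 nM and 0.01 nM for 3 probes by the test of the difference in limma: both Herpud1 probes, with steps of -0.70 and -0.64, and Entpd5, with -0.48. Entpd5 was above 0 on all 4 arrays with TCDF 10 nM and below 0 on all 4 with PeCDF 2 nM (means 0.25 and -0.41), and this difference of 0.66 was not tested.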

How the results depend on the processing

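No called value changed direction under the 11 alternatives or with an animal left out. Of the 16 called member values, Agilent's own log ratio ended 5, and so did the deposited series table. These settings hold the same ratios and are therefore 1 check. The groups of the same session alone ended 5 and no background correction 4, with all signs kept. An array-level fit with a dye term ended none. Members called with TCDD 0.01 nM numbered 2, and 1 with Agilent's log ratio, the series table, the stricter filter or the animal as a replicate block, 0 with the same session, and 0 to 2 with an animal left out. With TCDD 1 nM the 8 became 4 to 5 with an animal left out. With TCDF 10 nM the 1 became 2 with the replicate block (paired by animal), 4 with a dye term and 0 to 1 with an animal left out, and with PeCDF 2 nM the 2 became 6 with a dye term and 0 with an animal left out. With a dye term TCDF 0.1 nM gave 1 in place of 0 and the PeCDF step 3 in place of 0. The TCDD step had 1 in place of 3 with Agilent's log ratio, the series table or no background correction, and 0 to 4 with an animal left out. Pathway genes called with TCDD 1 nM numbered 33, but 58 with a dye term and 13 to 36 with an animal left out. For TCDF 10 nM the 7 became 21 and 0 to 2, and with PeCDF 2 nM the 18 became 41 and 0 to 4, besides 7 with Agilent's log ratio or the series table and 11 with the same session. Calls over all probes rose with a dye term as well, to 2923 higher and 4149 lower with TCDD 1 nM, 1742 and 1318 with TCDF 10 nM and 2203 and 2656 with PeCDF 2 nM, where the reported fit had 1716 and 2288, 372 and 420, and 640 and 955. With the replicate block TCDF 10 nM had 450 and 522. A dye term for each session, chosen after seeing the data, gave the same counts of 1, 4, 6, 3, 58, 21 and 41 as a single dye term. It took the place of the planned effect of the day, which was not run because the day coincides with the dye orientation within a session. The cause of these changes was not tested, other than that leaving out an animal leaves fewer samples. Apart from the member calls that the replicate block moved with TCDD 0.01 nM, TCDF 10 nM and PeCDF 2 nM, it changed no other member call. Saturation limits Hspa5, and disagreeing second probes limit what can be said of Ero1a, Hsp90b1, Hyou1 and Rpn1.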
